A study of Drosophila melanogaster with 3 samples.

Results

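The T-box genes encode transcription factors that share the T-box, a DNA-binding domain named after the mouse T (Brachyury) gene. The 8 genes described here are bi, byn, Doc1, Doc2, Doc3, H15, mid and org-1, taken by name from the Ensembl BDGP6 annotation, and they are 8 of 13945 protein-coding genes on the 6 chromosome arms used. Each gene was examined over its span with 10 kb added on each side. Because the windows of Doc2 and Doc3 overlap, the 8 windows covered 264 kb of distinct sequence, and each summit was counted once.

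T-box factors act at decisive steps of tissue specification in many animals. In the fly, byn, the Brachyury gene, specifies the hindgut, and the Dorsocross genes Doc1, Doc2 and Doc3 act in the amnioserosa and in the dorsal mesoderm that forms the heart. The paired genes H15 and mid act in heart formation and in segmental and neural patterning, org-1 acts in visceral and somatic muscle, and bi (optomotor-blind) acts downstream of the morphogen Dpp in the wing and in the optic lobe. CoRest is a scaffold protein that joins a histone demethylase and a histone deacetylase into a corepressor complex, which is known in vertebrates for repressing neuronal genes in other cells.

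Chromatin immunoprecipitation sequencing (ChIP-seq) mapped CoRest through a C-terminal GFP tag and an antibody to GFP. The material was whole Drosophila melanogaster embryos of both sexes, 0 to 24 h old, from 1 stable transgenic line, in 3 biological replicates that form 1 group. There was no second condition and no group without the tag, so no condition was compared and no test was made. The data are 5 peak lists: a list thresholded on reproducibility with 8721 peaks, a pooled list and 3 replicate lists with 30000 peaks each. The thresholded list was identical to the 8721 strongest peaks of the pooled list, and the pooled list was made from the same 3 replicates, so these lists are not independent of each other. The replicate lists hold the error: for equal lengths, the 8721 strongest peaks of each were used. Ranks count from 1, the strongest peak by the deposited signal in a list, and a rank given without a replicate is the pooled one. None of the sources used here gives read numbers, so the depth is unknown and a missing peak does not show missing binding. In whole embryos, a strong signal in few cells and a weak one in many cells cannot be told apart.

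Sequences around 5 summits are shown first, because they hold a contrast that the results return to. The promoter summits of bi and mid lie in GC-rich sequence with repeated GAGAG letters. Sequence around the org-1 promoter summit and the strongest distal summits is lower in GC. At org-1 this holds only around the summit, 340 bp upstream, while the promoter sequences at its start sites were GC-rich (53.7 and 57%). All 5 sequences are on the plus strand of dm6, 201 bases centred on the summit, read from the RefSeq assembly of that build. None touches an annotated exon. Capitals mark exact matches, on either strand, to any of the 14 motif sequences searched, which at bi and mid are all GAGAG or its complement CTCTC, the letters bound by GAGA factor. At the bi intronic summit they are CGATA overlapping GATAAG, the BEAF-32 and GATA sites, and the homeobox core TAATTA. The org-1 promoter and the distal Doc2 sequence hold no match.
org-1 promoter, chrX:8455309-8455509: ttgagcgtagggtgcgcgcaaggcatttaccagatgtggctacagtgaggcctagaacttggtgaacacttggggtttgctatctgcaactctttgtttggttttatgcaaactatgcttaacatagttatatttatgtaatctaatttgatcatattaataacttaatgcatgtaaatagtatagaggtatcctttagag
bi promoter, chrX:4426879-4427079: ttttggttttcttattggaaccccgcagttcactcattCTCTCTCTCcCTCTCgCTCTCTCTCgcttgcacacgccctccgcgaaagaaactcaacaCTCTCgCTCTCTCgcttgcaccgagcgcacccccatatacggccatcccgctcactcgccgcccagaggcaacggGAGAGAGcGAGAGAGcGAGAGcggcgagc
mid promoter, chr2L:5461230-5461430: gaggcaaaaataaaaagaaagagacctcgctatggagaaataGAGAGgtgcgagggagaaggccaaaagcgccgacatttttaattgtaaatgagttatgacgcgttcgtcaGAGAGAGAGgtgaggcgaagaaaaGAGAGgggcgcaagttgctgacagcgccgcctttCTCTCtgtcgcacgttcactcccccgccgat
Doc2 distal, chr3L:9025770-9025970: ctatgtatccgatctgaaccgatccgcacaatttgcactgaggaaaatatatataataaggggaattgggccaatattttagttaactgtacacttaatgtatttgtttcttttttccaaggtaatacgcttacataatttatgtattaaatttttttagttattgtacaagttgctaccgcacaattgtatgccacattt
bi intronic distal, chrX:4446165-4446365: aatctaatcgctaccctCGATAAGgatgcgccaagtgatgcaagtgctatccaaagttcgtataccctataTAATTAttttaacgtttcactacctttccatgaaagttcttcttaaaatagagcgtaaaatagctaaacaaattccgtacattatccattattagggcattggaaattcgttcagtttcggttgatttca

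The 8 windows held 25 thresholded summits, 0.946 per 10 kb, against 0.651 per 10 kb over the 6 chromosome arms. They were spread unevenly over the family. The Doc1 window held 7, those of bi and Doc2 5 each, those of Doc3 and org-1 3 each, those of H15 and mid 2 each, and that of byn none, with summits in overlapping windows counted for each gene. In all, 7 of 8 members had at least 1, where 78.7% of all protein-coding genes had one in a window made the same way. The median was 3 summits per T-box window and 2 over all genes' windows, and the median density was 0.933 against 0.886 per 10 kb, so the typical member was close to the typical gene. Doc1 (2.96 per 10 kb) stood at the 97.8th percentile of all genes' windows, Doc2 (1.88) at the 85.4th, Doc3 (1.36) at the 69.7th and org-1 (1.10) at the 62.1st. The values of mid (0.770), H15 (0.619) and bi (0.539) lay at the 45.3rd, 42.6th and 41.7th percentiles. Some of these places moved with the window: over its span alone bi lay at the 85.7th percentile, and with 20 kb on each side org-1 lay at the 36.6th, while Doc1 stayed between the 94.4th and the 98.3rd in every width tried.

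**Figure D1:**
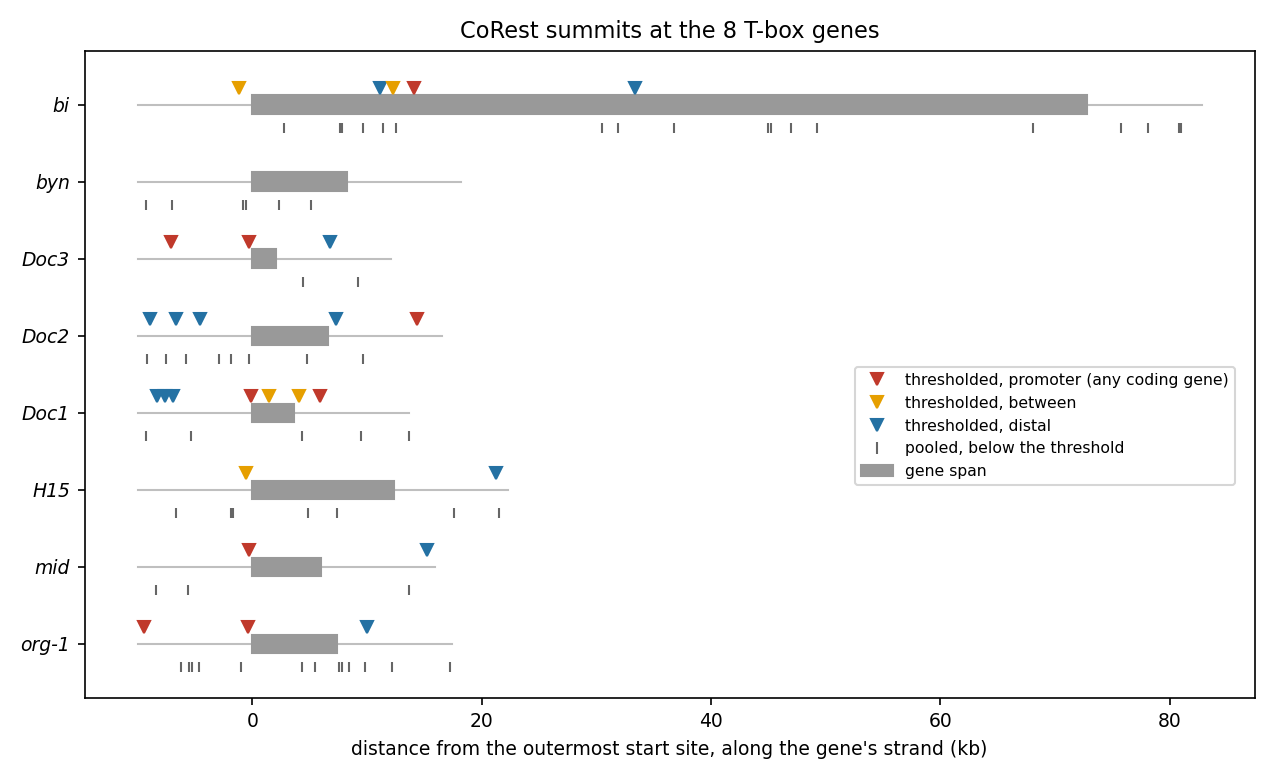
Position of CoRest summits at each T-box gene, in kb from its outermost start site along its strand; grey bars are gene spans, thin lines the windows, triangles thresholded summits by class and ticks pooled summits below the threshold. The Doc1 window holds 7 triangles and the byn window none, and the row of bi reaches farthest because its span is 72792 bp.

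Replicate support was high, as it was for the thresholded list as a whole. That list was itself thresholded on reproducibility in these replicates, so high support is partly built in. Of the 25 summits, 24 (96%) were found in all 3 replicates, that is with a replicate summit within 100 bp, against 88.0% of all thresholded summits. The exception was the Doc3 promoter summit, found in 2 replicates. Among the 8721 strongest peaks of every replicate were 19 of the 25 (76%), against 65.4% of all. Counted afresh in those equally long lists, the windows held 29 summits in replicate 1, 26 in replicate 2 and 22 in replicate 3 (25.7 ± 3.51, SD, n = 3). The median rank of the 25 was 3171, against 4361 over the whole list, and they ran from 313 at the org-1 promoter to 7757 at the Doc1 promoter.

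**Figure D2:**
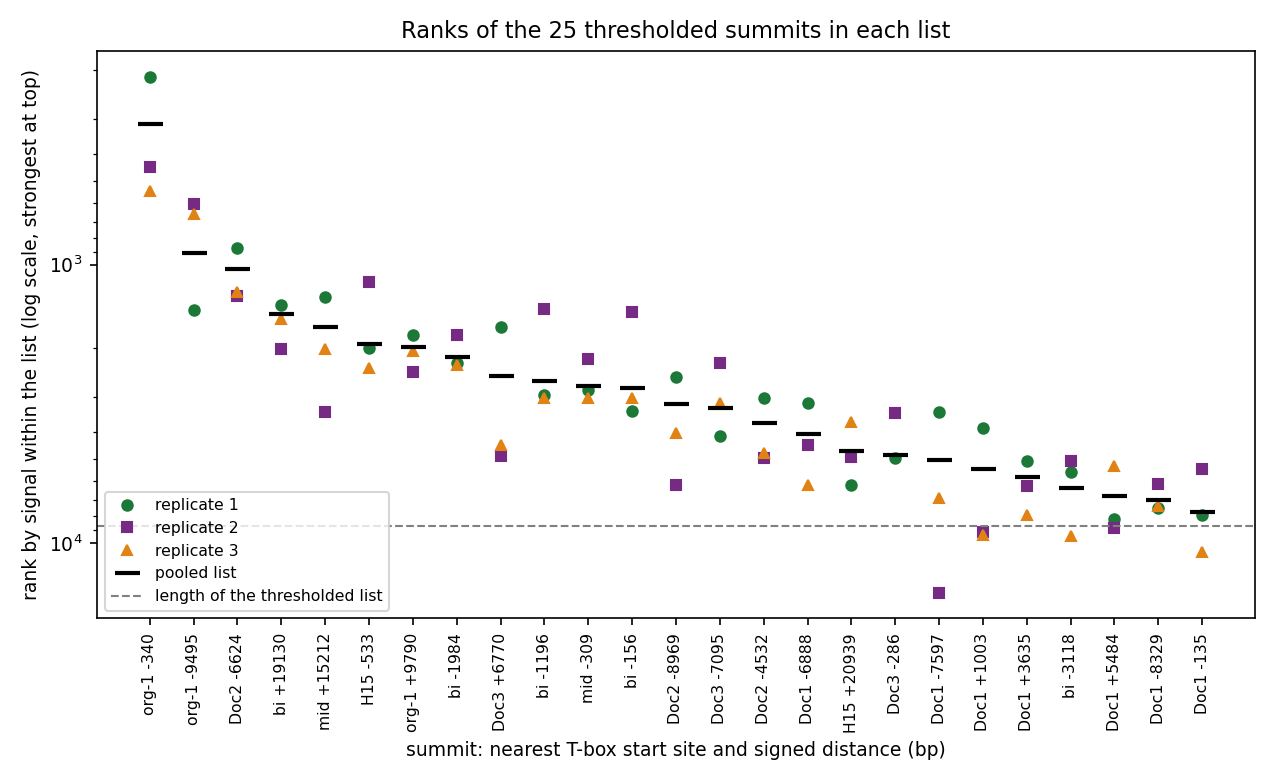
Rank of each of the 25 thresholded T-box summits in the pooled list (bars) and in the 3 replicate lists (symbols), on a log scale with the strongest at the top, ordered by pooled rank; the dashed line is rank 8721, the length of the thresholded list. The org-1 promoter at rank 313 leads in every list, and the Doc3 promoter at rank 4811 has no replicate 3 symbol.

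At their own start sites, 5 of 8 T-box genes had a promoter summit, a summit no more than 500 bp from a coding start site: org-1, mid, bi, Doc3 and Doc1. Of all protein-coding genes 35.4% had one. The count depended on the distance allowed: within 250 bp it was 2 of 8 (Doc1 and bi), without org-1 and its strong peak. The share of all genes is given for 500 bp only, so counts at other distances cannot be set against it. With the summit found in all 3 replicates, 4 of 8 had one, against 32.0% of all genes. The replicates' own strongest peaks gave 6 of 8 in replicate 1, 6 in replicate 2 and 3 in replicate 3 (5 ± 1.73, SD, n = 3), while the share of all genes was 35.5% ± 1.63 (SD, n = 3). Genes with more start sites had a promoter summit more often (29.0% of those with 1 start site, 48.1% with 2 and 59.6% with 3). Of the members, bi has 3 start sites, Doc1, H15 and org-1 have 2, and the others 1.

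The strongest of these peaks lay 340 bp upstream of org-1 (FBgn0021767, X 8447691 to 8455069, minus strand), in intergenic sequence. It had rank 211 in replicate 1, 445 in replicate 2 and 542 in replicate 3 (399 ± 170, SD, n = 3) and rank 313 in the pooled list. It was the only summit at a member's own promoter within the first 1000 ranks, and it held that place in every replicate. The promoter summit of mid (FBgn0261963, 2L 5461639 to 5467610, plus strand) lay 309 bp upstream, at ranks 2829, 2178 and 3006 in replicates 1 to 3 (2671 ± 436, SD, n = 3). That of bi (FBgn0000179, X 4412856 to 4485647, plus strand) lay 156 bp upstream of the innermost of its 3 start sites, inside an intron. Its ranks were 3362, 1475 and 3013 (2617 ± 1004, SD, n = 3). The ranges of mid and bi overlapped, so their order could not be told apart.

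The Dorsocross promoters were the weakest. The summit 286 bp upstream of Doc3 (FBgn0035954, 3L 9005196 to 9007249, plus strand) had rank 4942 in replicate 1 and 3426 in replicate 2, was not found in replicate 3, and had pooled rank 4811. Without replicate 1 or without replicate 2 its call was lost, which left 4 members with a promoter summit. The summit 135 bp upstream of Doc1 (FBgn0028789, 3L 9041375 to 9045042, plus strand) had ranks 7919, 5410 and 10740 (8023 ± 2667, SD, n = 3). The next candidate fell just below the threshold: 261 bp upstream of Doc2 (FBgn0035956, 3L 9012686 to 9019246, minus strand) the pooled list had a summit at rank 9491, with ranks 7911, 7278 and 13717 for the strongest summit within 500 bp of the start site (9635 ± 3549, SD, n = 3). In replicate 3 all 3 Dorsocross promoters were either missing or beyond rank 8721, while in replicates 1 and 2 all 3 were within it.

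H15 missed by distance rather than rank. Its nearest summit lay 533 bp upstream of the outer start site of the gene (FBgn0016660, 2L 5404280 to 5416593, plus strand), at ranks 1987, 1158 and 2344 (1830 ± 608, SD, n = 3). By rank it was stronger than the mid promoter summit in each replicate. With a window of 1000 bp the count became 6 of 8, a distance at which no share of all genes is given.

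The hindgut gene byn (FBgn0011723, 3L 11927693 to 11935919, plus strand) had no thresholded summit anywhere in its window. The nearest lay 63.8 kb from its start site, and 1.48% of protein-coding genes were farther from one, where the median gene was at 2682 bp. The pooled list held 6 summits in the byn window, the strongest at rank 14214 and 786 bp upstream, found in replicate 1 alone (rank 17153). A peak with an overlapping interval, its summit 587 bp upstream at rank 18898, was found in replicates 2 and 3 (ranks 15303 and 12822). Of the 6, 2 were found in all replicates: one at -9263 bp from the start site, at ranks 12782, 20654 and 27289, and one in an intron at 5074 bp, at ranks 25734, 12433 and 14625. The best rank in the window was 12782 in replicate 1, 12433 in replicate 2 and 12822 in replicate 3 (12679 ± 214, SD, n = 3). These ranks lay close together but belonged to different summits, and all were beyond the length of the thresholded list.

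Of the other 20 summits, 3 lay at promoters of neighbouring genes, 12 were distal, over 2 kb from the start site of any gene, and 5 were in neither class. The distal share was 48% of T-box summits, against 29.9% of all thresholded summits, and the promoter share 32% against 47.5%. A distal summit lay in the windows of 7 of 8 members, all but byn, where 20.4% of all protein-coding genes had one in their window. The room for such summits differed between the windows. Sequence over 2 kb from any start site made up 178 kb (67.3%) of the T-box windows together, of which bi alone gave 84.2 kb, and 62.3% of the genome. Window by window it ranged from 31.1% at org-1 and 31.9% at byn to 90.7% at bi, with a median of 47.9%, against 32.5% for the median gene's window. Per 10 kb of it the T-box windows held 0.675 distal summits and the genome 0.312. Among the 5898 genes whose windows held as much of it as the members' did, from 8.52 to 84.2 kb, 32.8% had a distal summit. The distal summits were unevenly spread, with 4 at Doc2, 3 at Doc1, 2 at bi and 1 each at Doc3, H15, mid and org-1. That at Doc3 also lay in the Doc2 window. The Dorsocross windows had little such sequence (Doc2 14.6 kb, Doc1 9.16 kb, Doc3 9.06 kb), against 28.0 kb at H15 and 22.0 kb at mid. The density over all windows is therefore weighted by the Dorsocross cluster and does not describe each member. The median rank of the 12 was 3443, against 5008 for all distal summits. By annotation 19 of the 25 were intergenic, 6 were intronic and none lay in an exon.

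The strongest distal summit lay in the gap between Doc2 and Doc1, 6624 bp upstream of Doc2. It had ranks 872, 1299 and 1256 (1142 ± 235, SD, n = 3) and is the distal Doc2 sequence shown above, with 31.3% GC. This gap of 22.1 kb held 7 thresholded summits, 3.16 per 10 kb. One of them was the Doc1 promoter summit and the other 6 were distal, within 10.7 kb of each other. In order from the Doc2 side, they lay 4532 bp (rank 3715), 6624 bp (1034) and 8969 bp (3171) upstream of Doc2, then 8329 bp (7025), 7597 bp (5024) and 6888 bp (4074) upstream of Doc1. All 6 were found in every replicate. The least even was the one 7597 bp upstream of Doc1, at ranks 3373, 15069 and 6915. In the gap of 5.44 kb between Doc3 and Doc2, 1 distal summit lay 6770 bp downstream of the Doc3 start site, at ranks 1677, 4868 and 4461 (3669 ± 1737, SD, n = 3). It lay in the windows of both genes, and its nearest start site was that of CG5194, 2128 bp away. It could not be assigned to a T-box gene alone.

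On the other side of the Doc1 start site, a summit at 1003 bp in its intron had ranks 3873, 9115 and 9331, and one at 3635 bp, just past the gene's end, had ranks 5083, 6268 and 7962. The nearest start site to this last summit was that of Argk2, an arginine kinase gene, 1975 bp away, so it could not be assigned to Doc1 alone. The window also held the promoter summit of Argk2, 126 bp upstream of that gene at rank 6805. On the far side of Doc3, a summit at rank 3286 lay at -83 bp from the start site of CG5087 and at -112 bp from that of smg, which encodes the translational repressor Smaug, and it was assigned to neither. Within the Dorsocross cluster, distal summits ranked from 1034 to 7025 while the genes' own promoter summits ranked 4811 and 7757, with Doc2 below the threshold. Of the 25 T-box summits, 13 (52%) had at least 2 other thresholded summits within 5 kb, against 39.4% of all thresholded summits. Of those 13, 10 lay in the Dorsocross windows and the other 3 at bi.

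**Figure D3:**
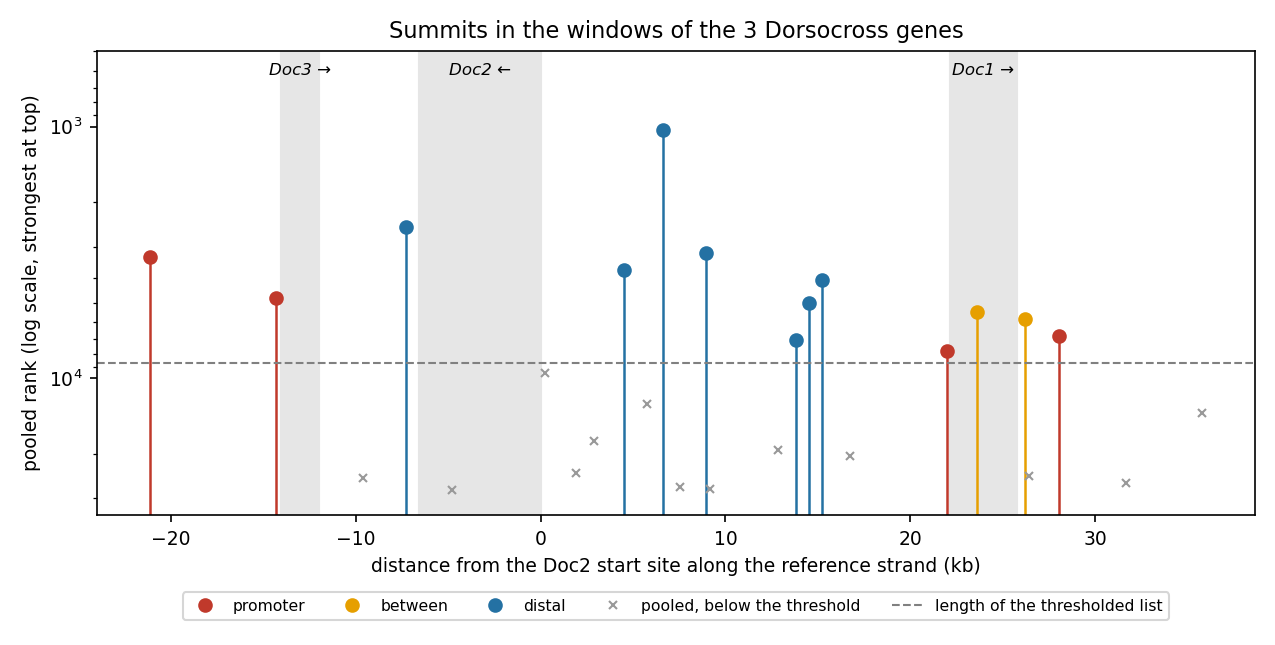
Thresholded summits in the windows of the 3 Dorsocross genes, in kb from the Doc2 start site along the reference strand, with pooled rank on a log scale (strongest at the top); grey areas are gene spans, crosses are pooled summits below the threshold and the dashed line is rank 8721. Between Doc2 and Doc1 stand 6 distal summits, led by the one at rank 1034, and the cross beside the Doc2 start site is its promoter summit at rank 9491.

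At bi all 5 summits lay in introns or upstream. One lay 1196 bp upstream of the outermost start site, at ranks 2936, 1442 and 3008. Others lay 3118 bp and 1984 bp upstream of the inner start site, at ranks 5558, 5063 and 9402 and at ranks 2260, 1794 and 2287. The strongest was intronic and distal, 19130 bp downstream of the inner start site, at ranks 1400, 2004 and 1569 (1658 ± 312, SD, n = 3), and its sequence is shown above. The promoter summit, at ranks 1475 to 3362 in the replicates, was lower than this distal one in replicates 1 and 3 but not in replicate 2. A long non-coding RNA gene, lncRNA:CR32773, overlaps these positions, so they could not be assigned to bi alone.

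H15 and mid stand in the same orientation, 45 kb apart. A distal summit 20939 bp downstream of the H15 start site, past the gene's end, had ranks 6201, 4892 and 3678 (4924 ± 1262, SD, n = 3). One lay 15212 bp downstream of the mid start site, also past the gene's end, at ranks 1309, 3385 and 2015 (2236 ± 1056, SD, n = 3). Each had a nearer start site, not of a protein-coding gene, at 6270 bp for the first and 10054 bp for the second. They could not be assigned to H15 or mid alone. The best rank in the H15 window averaged 1830 ± 608 and that in the mid window 1834 ± 462 (both SD, n = 3), which did not differ beyond their spread.

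The org-1 window held 2 further summits. One was distal, 9790 bp downstream of the start site, at ranks 1792, 2438 and 2041 (2090 ± 326, SD, n = 3), and with 21.4% GC it was the most AT-rich of the 25. Its nearest start site was that of CG12123, 2731 bp away, so it could not be assigned to org-1 alone. The other lay 126 bp upstream of Sptr, the sepiapterin reductase gene, at ranks 1455, 608 and 660 (908 ± 475, SD, n = 3). The org-1 promoter summit was stronger than both in each replicate.

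The T-box promoter summits differed in base composition from most promoter summits of the series. Within 100 bp of the summit, GC content was 59.7% at bi, 59.7% at Doc1, 58.2% at Doc3, 50.7% at mid and 36.8% at org-1. The median of the 5 was 58.2%, against 34.3% for all thresholded promoter summits, whose middle range from the lower to the upper quartile was 29.4 to 39.8%. The bi and Doc1 values lay at the 99.4th percentile of promoter summits, Doc3 at the 99.1st, mid at the 95.8th and org-1 at the 63.5th. Next to the limits, the H15 summit at 533 bp held 45.8% GC and the Doc2 summit below the threshold 50.2%. The 3 promoter summits of other genes in the windows held 48.3% GC (CG5087 and smg), 31.3% (Sptr) and 29.9% (Argk2), the first close to mid and the others below org-1. T-box distal summits had a median of 33.3% against 32.8% for all distal summits.

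**Figure D4:**
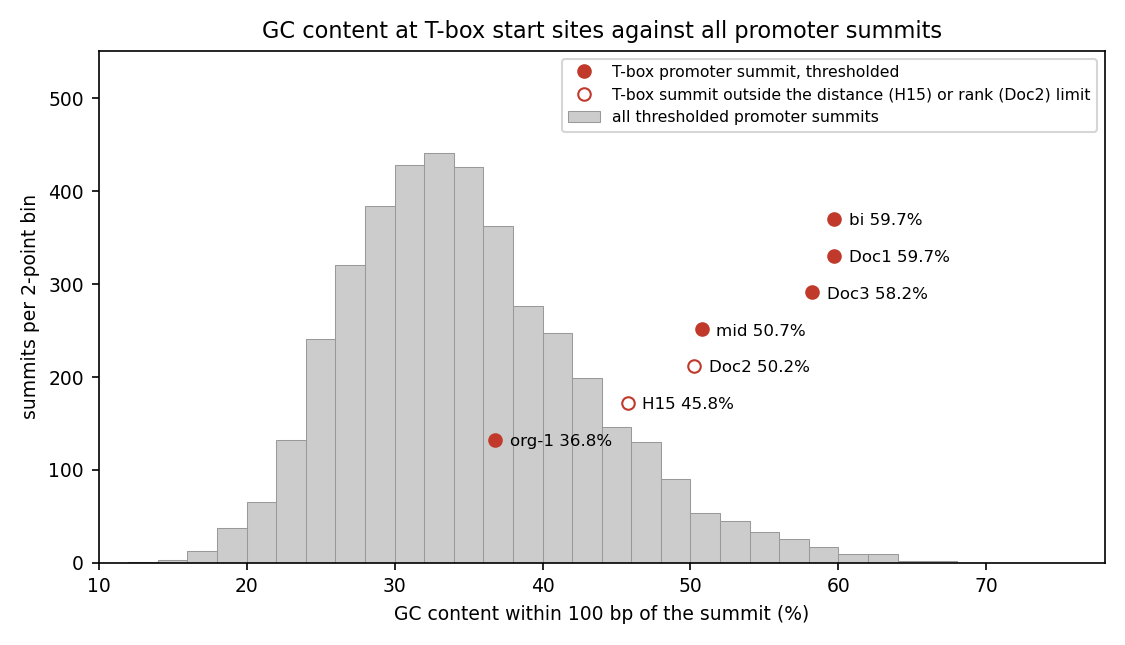
GC content of the 201 bases around promoter summits: grey bars count all thresholded promoter summits per bin of 2 percentage points, and red circles mark the T-box genes at their GC value, at heights that carry no meaning. Circles of bi, Doc1 and Doc3 lie between 58.2 and 59.7%, and org-1 at 36.8% lies within the bulk of the bars.

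The promoters themselves were GC-rich. From 250 bases before to 49 bases after the start site, the median over the 13 member start sites was 54%, against 39.3% over 19607 coding start sites. The inner start sites of H15 (26.7%) and Doc1 (36.7%) were the exceptions, and the other 11 ranged from 48 to 59.7%. In a GC range of 48 to 60%, set from these members, 19.3% of 3551 start sites had a thresholded summit within 500 bp, against 32.4% of all coding start sites. Of the 11 member start sites in that range, 5 had one. In the replicates' strongest peaks it was 6, 6 and 3 of the 11 (5 ± 1.73), where the share of all start sites in the range was 19.9% ± 1.70 (both SD, n = 3).

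GAGA factor binds GAGAG repeats at many developmental promoters. GAGAG occurred within 100 bp of 9 of the 25 T-box summits (36%), against 18.9% of all thresholded summits. Most matches lay close to member start sites: of the 9 summits within 2 kb of one, 6 held GAGAG (66.7%), against 18.2% of the 5756 thresholded summits within 2 kb of any coding start site. GC content moved with this. Of the 612 such summits with 45 to 60% GC, 39.2% held GAGAG, and of the 7 T-box summits in that range 6 did. The number of overlapping matches was 15 at the bi promoter, 9 at the bi summit 3118 bp upstream of the inner start site, 6 at the mid promoter, 3 at the bi summit 1984 bp upstream, 2 at H15 and 1 at each of 4 others. Among these 4 was the bi summit 1196 bp upstream of the outermost start site. Of the 6 summits near member start sites, bi gave its promoter summit and those at 1984 and 1196 bp. The rest were at mid, H15 and Doc3, so these shares are of summits and not of genes. Of the other member promoter summits, that of Doc3 held 1 match, while those of Doc1 (59.7% GC) and org-1 held none. In the printed sequences the matches stand as runs in capitals, on both sides of the summit at bi. In the promoters themselves, GAGAG was present at 7 of 13 member start sites (53.8%), against 33.1% of all. Other motifs there went either way. CGATA was present at 1 of 13 (7.69%, against 45.7%) and TAATTA at 0 of 13 (against 18.9%). CAGGTAG (Zelda) and TCAAGTG (Tinman) were present at 2 of 13 each (15.4%, against 1.70 and 4.92%). GGCGCC (Brinker) was present at 1 of 13 (7.69%, against 4.60%). The remaining motifs were each below their share at all start sites. The part of base composition in these counts was not tested.

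Around the summits, the other motifs were each at 5 or fewer of the 25. The BEAF-32 site CGATA occurred at 5 summits (20%, against 29.7% of all) and the homeobox core TAATTA at 4 (16%, against 19.3%). The site of GATA factors, GATAAG, occurred at 4 (16%, against 10.7%). The Su(H) core TGGGAA occurred at 2 (8%, against 10%). CAGGTAG (Zelda), GGCGCC (Brinker) and AGGAC (Tramtrack) occurred at 1 each (4%), against 0.757, 3.14 and 8.78% of all. None of the 25 held GGTGTGA (the T-box site itself, 1.98% of all), TCAAGTG (Tinman, 3.30%), CTTTGAT (Tcf, 3.52%), TATCGATA (DREF, 4.72%), CATATG (Twist, 7.27%) or CAGGTG (Snail, 4.61%). With 25 windows these counts are small, and a missing match says only that the letters are not in the window. CGATA lies within TATCGATA and can overlap GATAAG, so these matches are not separate.

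A list of 34 genes known as partners, regulators or targets of the T-box factors was examined in the same way. Of these, 23 had a promoter summit (67.6%, and 61.8% ± 13.5 in the replicates, SD, n = 3), against the 35.4% of all genes. A distal summit lay in the windows of 20 of the 34, against 20.4% of all genes. Neither share was matched for the partners' number of start sites or for the room in their windows, and both shares varied with these over all genes. All 7 hindgut genes, which share the tissue of byn, had a promoter summit: bowl at rank 667, wg at 1534, fkh at 2033, hh at 3499, cad at 3654, drm at 5054 and retn at 7102. In the strongest peaks of each replicate all 7 had one as well. Without replicate 2 or without replicate 3 the retn call was lost, which left 6, because that rule asks for replicate summits within 100 bp of the thresholded one. The byn gene itself had none. Of 11 cardiac and dorsal mesoderm genes 8 had one, led by tin, the cardiac homeobox gene, at 564, lbe at 2123, tup at 2127, pnr, a GATA factor gene, at 2232, lbl at 4008 and ush at 4111, while bap, bin and Hand had none. The tin promoter had ranks 585, 390 and 634 in the replicates, which overlapped those of the org-1 promoter.

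Of 6 segment polarity and neural genes 5 had a promoter summit, with nkd at rank 689, en at 3705, slp1 at 6408, eve at 8136 and slp2 at 8262, and gsb without one. The replicates' own strongest peaks gave 6, 4 and 2 of these 6 genes. Among 7 Dpp target and wing patterning genes, vg at 3847 and Dll at 5678 had one (28.6%), and Dad, brk, dpp, salm and salr had none. The vg promoter had no summit in replicate 3, and without replicate 1 or without replicate 2 only Dll was left. The windows of the 5 without one held 7 thresholded summits at brk, 7 at Dad, 4 at dpp, 3 at salm and 0 at salr. Of 3 muscle identity genes, ap at 2750 had one (33.3%) and lms and slou had none. The ap promoter too had no summit in replicate 3, and without replicate 1 or without replicate 2 the count was 0. The shares of these last lists were near that of all genes.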

How the data were processed

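Peak lists of CoRest ChIP-seq in 3 biological replicates (1 group) were used. Per the labels, sonication gave fragments of 200 to 800 bp, and coordinates are on dm6. The deposited file listings derive the pooled list from all 3 alignments with 1 control file, and the thresholded list from the others by reproducibility (IDR). Not given in the sources used here are the peak caller, IDR threshold, aligner and depth. The deposited signal of each peak is the authors' value, of a definition not given in those sources, and was used only to rank the peaks of 1 list. No result uses the −log10 q-value that the authors deposited. Summits were the interval start plus the deposited offset, printed 1-based.

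Annotation was Ensembl release 115 and bases were read from RefSeq's Release 6 assembly, after chromosome lengths and last peak ends were compared. Transposable element records were left out. The members' proteins were not compared here. Motifs were searched as exact letters on both strands.

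The members and all lists were chosen with earlier results of these data known, so no p-value is given. Genes named are the 8 members, genes with a start site within 500 bp of a thresholded summit in the windows, up to 6 with and 4 without a promoter summit per partner list, and the 3 genes nearest to Doc1 in summit counts. Of the summits, every promoter summit of a member and the 12 other summits of highest rank were to be described, and the rest were added after their values were seen. The bi and mid promoter sequences, and the GC ranges, were also chosen after values were seen. So were any other genes named, such as the seventh bound hindgut gene and the fifth unbound wing gene. Alternatives were other windows, list lengths, match distances and each replicate left out (keeping thresholded peaks found in both others). Counting steps were tested on simulated data. Python 3.11.15, numpy 2.4.6, pandas 2.3.3 and matplotlib 3.10.9 were used.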

Additional observations from a re-analysis of the deposited data

How the results depend on the processing

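Of 96 alternative values over 37 results, 60 stayed within the spread or within 1.5 times the reported count, and 36 moved. The 5 genes with a promoter summit became 2 (Doc1 and bi) within 250 bp, and 3 (bi, mid and org-1) in the 4360 strongest thresholded peaks or in replicate 3 alone. It was also 3 when the summit had to be among the strongest peaks of all 3 replicates, an alternative chosen after seeing the data. The 25 summits became 5 with 0 kb and 16 with 5 kb on each side, 16 in the 4360 strongest peaks and 48 in the 17442 strongest pooled peaks, and the 12 distal ones became 2, 5 and 28 with 0 kb, 5 kb and the 17442 strongest. These follow from smaller windows or other list lengths. With a match within 50 bp, 15 of the 24 summits were still found in all 3 replicates, a distance at which no share of all thresholded summits is given. The 12 pooled summits below the threshold but found in all 3 replicates became 7 within 50 bp and 25 within 250 bp. Leaving out 1 replicate at a time gave 4 to 5 genes, 24 to 25 summits, 12 distal summits each time and 20 to 22 of the 23 partner genes. This only dropped thresholded peaks not found in both other replicates, and the list itself was still made from all 3. As 24 of the 25 summits were found in all 3 replicates, their counts could hardly move. These values are among the 60 that stayed but are no independent check. The best byn rank was 14214 in the pooled list and 12679 as a mean of replicates. The median density of 0.933 per 10 kb became 0 with 0 kb, 0.709 with 20 kb and 1.61 with the 17442 strongest peaks.

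With 50 bp on each side of the summit, the counts were 2 for the homeobox, 2 for the GATA and 2 for the BEAF-32 site, and 0 for Zelda, Brinker and Su(H). With 200 bp they were 1 for the T-box site, 3 for Tinman, 8 for the homeobox, 2 for Zelda, 14 for GAGA, 2 for Brinker, 5 for Su(H), 10 for BEAF-32, 2 for Tramtrack and 2 for Twist. The median GC of the 25 moved from 36.3% to 32.7% with 50 bp and 44.1% with 200 bp. Motif shares and median GC of all thresholded summits are not given for these 50 and 200 bp windows. These counts and GC values therefore cannot be set against the values of all summits given earlier. No paired analysis was possible because there is 1 group.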

Other observations

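Between H15 and mid, 2 further thresholded summits lay outside both windows. One lay 22416 bp downstream of the H15 start site, at ranks 4449, 11283 and 7227 in replicates 1 to 3 (pooled rank 5552). The other lay 15575 bp upstream of mid, at ranks 1985, 4831 and 4190 (pooled rank 2737), with 20.4% GC. With them the gap of 45 kb held 4 thresholded summits, 0.888 per 10 kb.

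Below the threshold, the T-box windows held 60 pooled summits, of which 12 (20%) were found in all 3 replicates, against 22.0% of all pooled summits below it. Of these, 4 lay in the window of bi, 2 each in those of byn, Doc2 and org-1, 1 each in those of Doc1 and mid, and none in those of Doc3 and H15.

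The Doc1 window held 7 summits in the thresholded list, 12 in the pooled list and 13, 12 and 10 in the whole replicate lists. The genes nearest to it in these 5 counts, by the distance of log2(count + 1), were Opbp (distance 0), mop (0.115) and HisRS, the histidyl-tRNA synthetase gene (0.165). Among the partner genes, ush, a cofactor gene of GATA factors, had the fullest window, with 24 thresholded summits, 13 of them distal.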
